A study of Mus musculus with 17 samples.

Results

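The genes described here are 10 genes of MHC class I antigen presentation in the lung of irradiated mice. They were chosen by name from the 45777 genes of the count table, and the rule itself uses no measured value: the heavy chains H2-K1 and H2-D1, the light chain B2m, the peptide transporter subunits Tap1 and Tap2, the loading factor Tapbp, the immunoproteasome subunits Psmb8, Psmb9 and Psmb10, and the regulator Nlrc5. The libraries came from lung of wild-type male C57BL/6 mice that were 6 weeks old before a week of acclimatisation. The left lung received 65 Gy or 75 Gy of focal irradiation in 1 fraction, or no radiation in the controls, and tissue was collected after 2 weeks or 6 weeks, times that the study assigned to an inflammation and a fibrosis stage. Each of the 6 groups had 3 libraries except 65 Gy at 6 weeks, which had 2, and the 2 doses were compared with the same controls at each time. According to the methods, RNA of irradiated mice was taken from the lesions, so that dissection of a lesion and irradiation cannot be told apart. The labels do not say in words that each library came from a separate mouse, so that p-values measure the spread between these libraries.

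MHC class I molecules present peptides from inside the cell to CD8 T cells and are carried by nearly all nucleated cells. Proteasomes cut proteins into peptides, the TAP transporter moves the peptides into the endoplasmic reticulum, and tapasin and its partners load them onto a heavy chain bound to beta-2-microglobulin. Interferon-gamma is known to raise most of these genes, partly through NLRC5, and to exchange the catalytic subunits of the constitutive proteasome for the inducible ones of the immunoproteasome.

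The libraries held between 46764569 and 66797879 counts, with a median of 57608149, and all 10 genes passed the filter on low counts. The 10 genes took 0.334% to 0.383% of the counts of a control library and 0.472% to 0.950% of an irradiated one, and the highest share was that of library 3134, 1 of the 3 libraries of 75 Gy at 2 weeks (libraries are named by their numbers in the labels). That library had the highest level of the 17 for each of the 10 genes, the other 2 libraries of its group being 3132 and 3133. Results at 2 weeks are therefore given with and without it. Control library 3126 of 2 weeks had summed macrophage markers of 10419 CPM against 4950 and 6690 CPM in the other 2 controls, nearly all of it from 1 gene, Lyz2 (10026 against 4593 and 6290.4 CPM), while Cd68 was at 40.4 CPM against 35.6 and 46.9 CPM. Markers of alveolar type 2 cells were present at a summed 16820 to 31844 CPM in all libraries. Levels are given as CPM, the reads of a gene scaled to the size of its library, and only the 100-base windows of H2-D1 (4.643% of them, mostly shared with H2-Q1) and Tapbp (0.107%) occurred in the transcripts of another gene. Statements that groups did or did not overlap describe the libraries and are no test. The share of all genes whose groups did not overlap was not computed.

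At 2 weeks all 10 genes had a fitted log2 fold change above 0 against controls at either dose. A gene was taken to have risen when its adjusted p (edgeR's quasi-likelihood test, Benjamini-Hochberg over 22052 genes) was at most 0.05, and called a differentially expressed gene (DEG) when its absolute log2 fold change was also at least 1. After 65 Gy, H2-K1, H2-D1 and Psmb8 rose, 3 of 10 where 6.70% of all genes tested rose, and 0 of 10 were DEGs where 3.47% of all genes were higher DEGs. An unadjusted p under 0.05 was found for 6 of the 10, and edgeR's exact test and DESeq2 each gave 0 DEGs and 4 genes that rose. After 75 Gy, 8 of the 10 rose (background 11.8%), Tap2 and Psmb10 being the other two, and 4 were DEGs (background 5.67%), namely H2-K1, Tap1, Psmb8 and Nlrc5. The median log2 fold change of the 10 genes was 0.59 after 65 Gy and 0.86 after 75 Gy, against -0.0085 and 0.00084 over all genes. Without library 3134, the counts became 7 risen after 65 Gy (background 9.01%) and 4 after 75 Gy (background 8.20%), with 0 DEGs at either dose and medians of 0.59 and 0.46. The 4 genes that rose after 75 Gy in both fits were H2-K1, H2-D1, Tap1 and Psmb8. When only the 75 Gy and control libraries of 2 weeks were fitted, the number that rose went from 8 to 1, Psmb8 (adjusted p = 0.0436), which was also the 1 DEG. In that fit the adjusted p was 0.0687 for H2-K1, 0.0874 for H2-D1, 0.0968 for B2m, 0.0782 for Tap1, 0.143 for Tapbp, 0.116 for Psmb9 and 0.164 for Nlrc5. The same kind of fit went the other way after 65 Gy at 2 weeks, where 7 of the 10 rose, with 0 DEGs. Over all genes, 1150 passed in either direction in the 75 Gy fit and 2123 in the 65 Gy fit.

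At 6 weeks the genes that rose were the 3 chains of the class I molecule and Psmb8. After 65 Gy H2-K1 alone rose (background 7.66%), with 0 DEGs (background 4.34%) and 4 genes under an unadjusted p of 0.05. The exact test and DESeq2 each gave 0 DEGs and 2 genes that rose. After 75 Gy, B2m, H2-K1, H2-D1 and Psmb8 rose (background 18.0%) and B2m was the 1 DEG (background 7.28%). The median log2 fold changes were 0.32 and 0.31, against 0.0081 and 0.04 over all genes. Without library 3134, whose spread also enters the error of these comparisons, 4 genes rose after 65 Gy (H2-K1, H2-D1, B2m and Psmb8; background 9.66%) and 5 after 75 Gy, Psmb9 being added (background 19.8%). No member fell in any comparison with controls. The plot of CPM by library shows the values behind these counts.

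**Figure D1:**
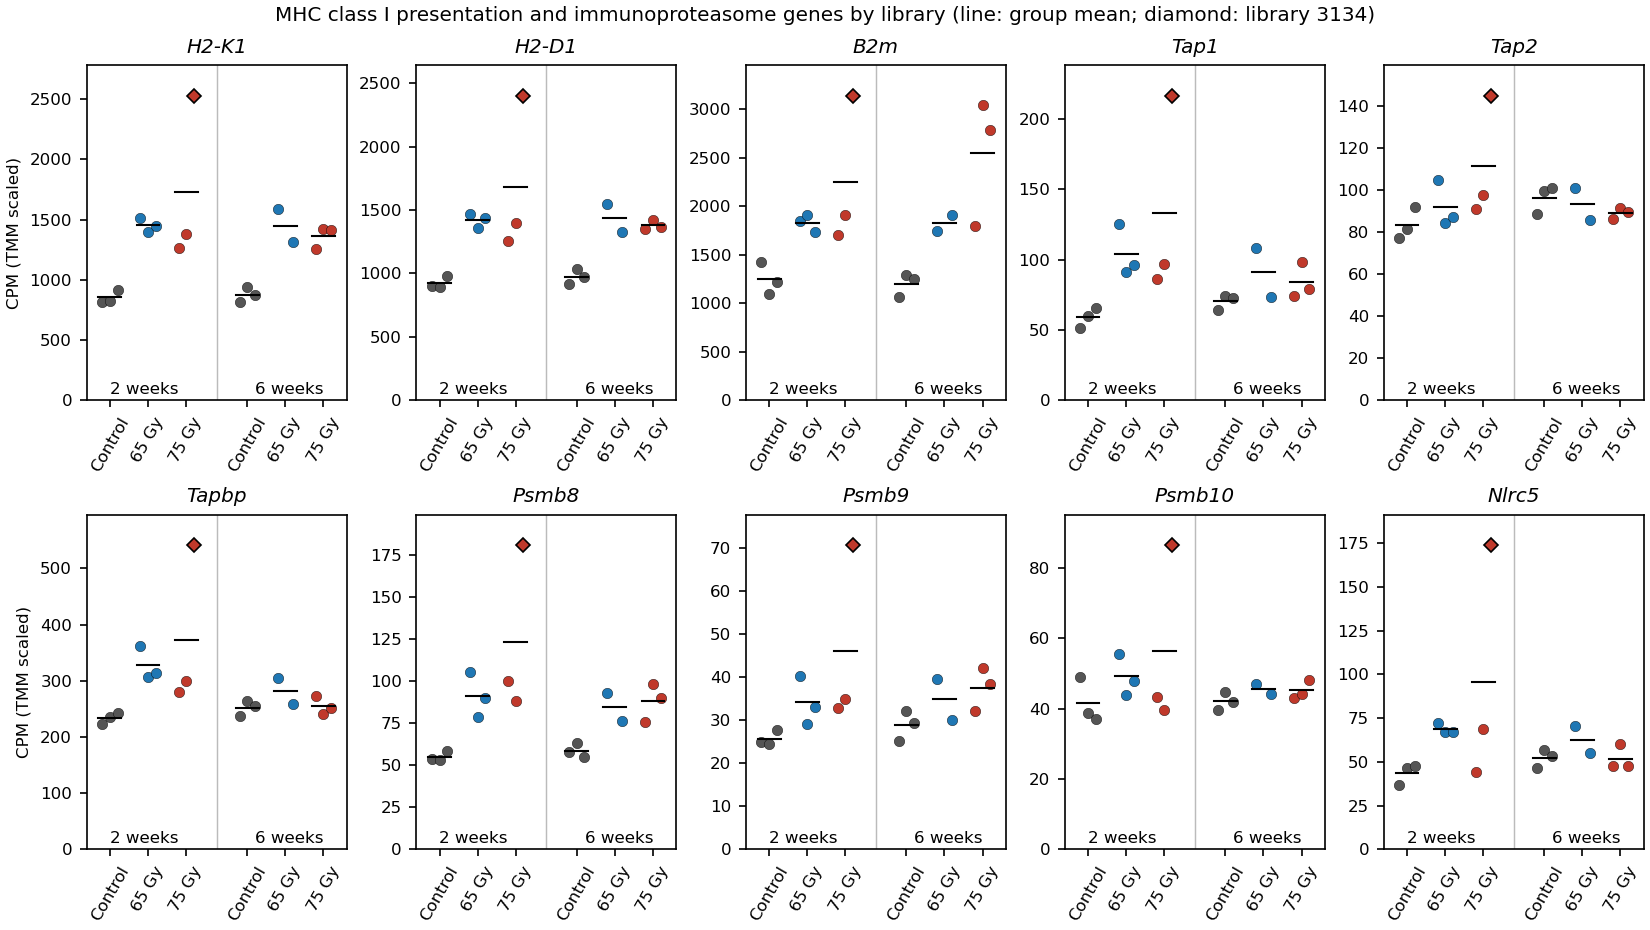
Each panel plots 1 gene in the 17 libraries, as CPM on a linear axis from 0, with the 6 groups along the horizontal axis, a line at each group mean and a diamond for library 3134. All irradiated libraries lie above all controls of their time for H2-K1, H2-D1, B2m and Psmb8, and the diamond is the highest point in every panel. The share of all genes separated in this way was not computed.

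H2-K1 encodes the heavy chain of the classical molecule H-2K, whose groove holds the peptide. At 2 weeks it stood at 819, 824 and 915 CPM in the controls, 1511, 1399.7 and 1446 CPM after 65 Gy and 1266, 1380.3 and 2527 CPM after 75 Gy. At 6 weeks it stood at 819, 939 and 869.7 CPM in the controls, 1585 and 1313 CPM after 65 Gy and 1256, 1423 and 1415 CPM after 75 Gy. All irradiated libraries were above all controls at both times, and library 3134 was the highest of the 17. Its log2 fold change was 0.77 ± 0.19 (SE, adjusted p = 0.0194) after 65 Gy and 1.02 ± 0.19 (SE, adjusted p = 0.00187) after 75 Gy at 2 weeks, the latter a 2.02-fold increase. The 6-week values were 0.73 ± 0.21 (SE, adjusted p = 0.033) after 65 Gy, and 0.64 ± 0.19 (SE, adjusted p = 0.0176) after 75 Gy. Leaving out library 3134 brought the 75 Gy value at 2 weeks to 0.63 (adjusted p = 0.000881), below the DEG limit and close to the 6-week value, and fitting only the groups compared ended that call (0.0687). The 65 Gy call at 2 weeks was lost without library 3127, 3129 or 3131 (adjusted p = 0.0542 to 0.0662), that at 6 weeks without any 1 library of its own 2 groups, 3135 to 3138 or 3140 (0.0636 to 0.216), and the 75 Gy call at 6 weeks without library 3135 (0.0629).

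H2-D1, the heavy chain of H-2D, followed nearly the same course. At 2 weeks it stood at 904, 894 and 979 CPM in the controls, 1468, 1358 and 1437 CPM after 65 Gy and 1253, 1401 and 2402 CPM after 75 Gy. At 6 weeks it stood at 917, 1036 and 970.2 CPM in the controls, 1549.8 and 1327 CPM after 65 Gy and 1352, 1422 and 1368 CPM after 75 Gy. The groups again did not overlap, and the Pearson correlation of the 2 heavy chains on the log2 scale was 0.995 over the 17 libraries, which share their group structure and library scaling. The log2 fold change at 2 weeks was 0.62 ± 0.18 (SE, adjusted p = 0.0353) after 65 Gy and 0.86 ± 0.18 (SE, adjusted p = 0.0029) after 75 Gy, and the 75 Gy call was lost when only the groups compared were fitted (adjusted p = 0.0874). The 6-week value was 0.56 ± 0.19 (SE, adjusted p = 0.0643) after 65 Gy, which did not pass the quasi-likelihood test with all libraries, and 0.50 ± 0.18 (SE, adjusted p = 0.0363) after 75 Gy. Without library 3134 the 65 Gy value was 0.56 (adjusted p = 0.000763), and it also passed without library 3132 (0.0253). With other settings it passed by edgeR's exact test (adjusted p = 0.0357), by DESeq2 (0.0274), with upper-quartile factors (0.0467) and with only the groups compared (0.00329). The calls of H2-D1 after 65 Gy at 2 weeks and after 75 Gy at 6 weeks were each lost without any 1 library of the groups compared, 3126 to 3131 (adjusted p = 0.065 to 0.104) and 3135 to 3137 or 3141 to 3143 (0.0573 to 0.107).

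B2m encodes the light chain shared by all class I molecules. At 2 weeks it stood at 1422, 1097 and 1219 CPM in the controls, 1851, 1912 and 1734 CPM after 65 Gy and 1699, 1912 and 3139 CPM after 75 Gy, and all irradiated libraries were above all controls. Against controls the log2 fold change was 0.56 ± 0.21 (SE, adjusted p = 0.11) after 65 Gy and 0.85 ± 0.21 (SE, adjusted p = 0.0101) after 75 Gy. Without library 3134 these were 0.56 (adjusted p = 0.0277) and 0.54 (adjusted p = 0.0546), so that the 65 Gy value passed the test and the 75 Gy value no longer did, as was also the case for the 75 Gy value when only the groups compared were fitted (0.0968). At 6 weeks B2m stood at 1069, 1289.9 and 1249 CPM in the controls, 1748 and 1910.2 CPM after 65 Gy and 1797, 3047 and 2787 CPM after 75 Gy. Libraries 3142 and 3143 of 75 Gy were well above library 3141, which lay within the range of 65 Gy, whereas the heavy chains were nearly level in these 3 libraries. Here the log2 fold change was 0.60 ± 0.23 (SE, adjusted p = 0.0988) after 65 Gy and 1.08 ± 0.21 (SE, adjusted p = 0.00148) after 75 Gy, a 2.12-fold increase and the largest of the 10 genes in that comparison. Without library 3142 it was 0.94, below the DEG limit.

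The heavy chains varied together and B2m less closely with them, and whether upstream sequence bears on that was not tested. Bases before the start of transcription are shown for the 3 chains, 200 for H2-D1 and B2m and a stretch of 30 for H2-K1 and H2-D1. H2-K1 had entries for starts at 34000347 and 34000333, of which the first was used for its stretch. The sequences are those of RefSeq on GRCm38.p6, 200 bases upstream of the start on the strand of the gene, with 5 motifs in capitals, each also sought on the other strand. GAAANNGAA is an interferon-stimulated response element core, GAANNGAAA the same element in the form found in the heavy chains, GGGATTCCC a site of the kind bound by NF-kappaB, TGACG the core of a cyclic AMP response element, as in the X2 box, and CCAAT the core of the Y box, which reads ATTGG on the other strand. A match is a string of letters and not a measured site. H2-D1 is transcribed from the plus strand of chromosome 17 (35263094 to 35267497) and H2-K1 from the minus strand of the same chromosome (33996012 to 34000619), while B2m lies on the plus strand of chromosome 2 (122147687 to 122153082). The H2-D1 sequence is chr17:35262894-35263093 and the B2m sequence chr2:122147487-122147686, both on the plus strand.
H2-D1: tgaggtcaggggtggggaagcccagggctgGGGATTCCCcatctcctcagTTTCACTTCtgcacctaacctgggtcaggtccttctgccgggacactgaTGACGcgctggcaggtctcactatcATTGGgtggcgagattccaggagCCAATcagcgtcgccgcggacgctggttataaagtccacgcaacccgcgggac
B2m: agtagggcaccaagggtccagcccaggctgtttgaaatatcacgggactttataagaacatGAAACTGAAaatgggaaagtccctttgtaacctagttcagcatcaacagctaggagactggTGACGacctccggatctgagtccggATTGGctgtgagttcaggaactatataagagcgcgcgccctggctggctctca
Of the upstream bases of H2-K1 and H2-D1 that could be aligned, 170 of 190 were identical (89.5%). The 30 bases that hold the GGGATTCCC and GAANNGAAA strings of both genes, the latter read from the other strand, are shown next.
H2-K1: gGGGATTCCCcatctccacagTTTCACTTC
H2-D1: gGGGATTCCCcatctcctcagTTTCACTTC
Among all 32851 promoters, taken as 250 bases upstream, GAAANNGAA occurred in 7.13% (B2m among the 8 members with an entry), GAANNGAAA in 6.31% (H2-K1 and H2-D1), GGGATTCCC in 0.301% (H2-K1 and H2-D1), TGACG in 17.8% (H2-K1, H2-D1, B2m, Tap1 and Psmb9) and CCAAT in 33.8% (those 5 and Tapbp). The full 8-letter element TGACGTCA (1.55% of promoters) was in none of the 8, and TTCNNNGAA, the gamma-activated site (7.02%), was in Psmb8. GAANNGAAA, GGGATTCCC and TGACG were added to the search after the sequences had been seen.

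Tap1 and Tap2 form the transporter that carries peptides into the endoplasmic reticulum, and Tap1 had the larger fitted changes. At 2 weeks Tap1 stood at 51.6, 59.9 and 65.5 CPM in the controls, 125, 91.2 and 96.2 CPM after 65 Gy and 85.98, 97.2 and 217 CPM after 75 Gy. Tap2 stood at 77.2, 81.4 and 92.2 CPM in the controls, 105, 84.3 and 87.2 CPM after 65 Gy and 91.1, 97.99 and 145 CPM after 75 Gy. The groups did not overlap for Tap1 at either dose and overlapped for Tap2 at both, for which library 3129 of 65 Gy and library 3134 of 75 Gy were the highest of their groups. The log2 fold change of Tap1 was 0.82 ± 0.27 (SE, adjusted p = 0.0669) after 65 Gy and 1.18 ± 0.27 (SE, adjusted p = 0.00656) after 75 Gy, the latter the largest of the 10 genes. Without library 3134 they were 0.82 (adjusted p = 0.00247) and 0.63 (adjusted p = 0.0244), both of which passed, while the 75 Gy call was lost when only the groups compared were fitted (0.0782), and the 65 Gy value also passed without library 3132 (0.0352). For Tap2 they were 0.14 ± 0.15 (SE, adjusted p = 0.614) and 0.41 ± 0.15 (SE, adjusted p = 0.0558), and without library 3134 the 75 Gy value was 0.18 (adjusted p = 0.314). The 75 Gy value of Tap2 passed without library 3132 (adjusted p = 0.0158) or 3133 (0.0356), and by DESeq2 (0.0302) and the exact test of edgeR (0.04).

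At 6 weeks neither subunit passed the test at either dose. Tap1 stood at 64.4, 74.2 and 72.9 CPM in the controls, 108 and 73.6 CPM after 65 Gy and 74.1, 98.3 and 79.2 CPM after 75 Gy, and its groups overlapped. Tap2 stood at 88.8, 99.8 and 101.1 CPM in the controls, 101.0 and 85.9 CPM after 65 Gy and 86.5, 91.4 and 89.8 CPM after 75 Gy, and its groups overlapped as well. The log2 fold change of Tap1 was 0.37 ± 0.30 (SE, adjusted p = 0.454) after 65 Gy and 0.25 ± 0.27 (SE, adjusted p = 0.499) after 75 Gy, and that of Tap2 was -0.048 ± 0.16 and -0.11 ± 0.15 (SE). A p that misses the threshold does not show equal levels, and the 95% interval of Tap2 after 75 Gy ran from -0.43 to 0.20.

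Tapbp encodes tapasin, which holds the empty class I molecule at the transporter. At 2 weeks it stood at 224, 237 and 244 CPM in the controls, 363, 306 and 313 CPM after 65 Gy and 279, 299 and 542 CPM after 75 Gy, without overlap between irradiated libraries and controls. Its log2 fold change was 0.48 ± 0.18 (SE, adjusted p = 0.111) after 65 Gy and 0.67 ± 0.18 (SE, adjusted p = 0.017) after 75 Gy. When library 3134 was left out, the 65 Gy value passed the test at 0.48 (adjusted p = 0.00195) and the 75 Gy value did not at 0.30 (adjusted p = 0.0552), nor did it pass when only the groups compared were fitted (0.143). At 6 weeks it stood at 237, 265 and 256 CPM in the controls, 305 and 259 CPM after 65 Gy and 274, 241 and 251 CPM after 75 Gy. The groups overlapped, and the log2 fold change was 0.16 ± 0.21 after 65 Gy and 0.016 ± 0.18 after 75 Gy (SE).

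Psmb8, which encodes the immunoproteasome subunit beta5i, was the inducible subunit with the largest fitted changes. At 2 weeks it stood at 53.6, 53.3 and 58.4 CPM in the controls, 105, 78.8 and 89.8 CPM after 65 Gy and 100.2, 88.3 and 181 CPM after 75 Gy. At 6 weeks it stood at 57.7, 63.4 and 55.1 CPM in the controls, 93.2 and 76.2 CPM after 65 Gy and 75.8, 98.3 and 90.04 CPM after 75 Gy. All irradiated libraries were above all controls at both times. The log2 fold change at 2 weeks was 0.73 ± 0.21 (SE, adjusted p = 0.035) after 65 Gy and 1.16 ± 0.21 (SE, adjusted p = 0.00127) after 75 Gy, a 2.24-fold increase. The 6-week values were 0.53 ± 0.23 (SE, adjusted p = 0.134) after 65 Gy, and 0.58 ± 0.21 (SE, adjusted p = 0.0381) after 75 Gy. Without library 3134 the gene passed the test in all 4 comparisons, with log2 fold changes of 0.73 and 0.77 at 2 weeks and 0.53 and 0.58 at 6 weeks. With all others kept, the 65 Gy call at 2 weeks was lost without library 3126, 3127, 3128, 3129 or 3131 (adjusted p = 0.0681 to 0.139) and the 75 Gy call at 6 weeks without library 3135, 3136, 3137, 3142 or 3143 (0.0606 to 0.117).

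Psmb9 encodes beta1i and Psmb10 beta2i. At 2 weeks Psmb9 stood at 24.9, 24.4 and 27.8 CPM in the controls, 40.2, 29.2 and 33.02 CPM after 65 Gy and 32.9, 34.9 and 70.7 CPM after 75 Gy. Psmb10 stood at 48.98, 38.8 and 37.03 CPM in the controls, 55.7, 43.9 and 47.96 CPM after 65 Gy and 43.3, 39.6 and 86.6 CPM after 75 Gy. Psmb9 was higher in every irradiated library than in every control, while Psmb10 overlapped with its controls at both doses, control library 3126 being above 4 of the 6 irradiated libraries. Psmb9 rose after 75 Gy, by 0.84 ± 0.24 (SE, adjusted p = 0.0182), and its 65 Gy value was 0.41 ± 0.24 (SE, adjusted p = 0.302). With library 3134 left out, the 75 Gy value was 0.40 (adjusted p = 0.104), and the call was also lost without control 3127 (0.0632) and when only the groups compared were fitted (0.116). For Psmb10 the log2 fold change was 0.24 ± 0.22 (SE, adjusted p = 0.543) after 65 Gy and 0.44 ± 0.22 (SE, adjusted p = 0.166) after 75 Gy, and the latter went to -0.0049 without library 3134 and passed at 0.64 without library 3133 (adjusted p = 0.0382).

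At 6 weeks Psmb9 stood at 25.2, 32.04 and 29.3 CPM in the controls, 39.6 and 30.02 CPM after 65 Gy and 32.1, 42.04 and 38.5 CPM after 75 Gy. Psmb10 stood at 39.7, 44.6 and 42.02 CPM in the controls, 46.9 and 44.2 CPM after 65 Gy and 43.1, 44.2 and 48.3 CPM after 75 Gy. The groups overlapped at both doses for Psmb10 and after 65 Gy for Psmb9, which was above all controls after 75 Gy. Neither gene passed the test with all libraries. The log2 fold change of Psmb9 was 0.27 ± 0.26 after 65 Gy and 0.38 ± 0.23 after 75 Gy, and that of Psmb10 was 0.11 ± 0.24 and 0.10 ± 0.22 (SE). Without library 3134 Psmb9 passed after 75 Gy (adjusted p = 0.0449).

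Psmb9 and Tap1 lie head to head on chromosome 17 and their start sites are 225 bases apart, so that 1 stretch of DNA lies upstream of both. Psmb9 runs on the minus strand (34182030 to 34187330) and Tap1 on the plus strand (34187556 to 34197225), followed by Psmb8 (34198195 to 34201454) and Tap2 (34204479 to 34216321) on the plus strand. Over the 17 libraries Tap1 was the member that varied most like Psmb9 (Pearson r = 0.932 on the log2 scale), and the lowest r of Psmb9 with a member was 0.811. Tap1 itself varied most like Nlrc5 on chromosome 8 (0.938), and Psmb8 most like H2-K1 (0.963). The pair was thus not set apart by its correlation, and a part of the shared stretch in it was not tested. The whole stretch between the start sites, chr17:34187331-34187555 on the plus strand (RefSeq, GRCm38.p6), is shown with its CCAAT and TGACG strings in capitals, the first next to Psmb9 and the second nearer to Tap1.
Tap1 and Psmb9: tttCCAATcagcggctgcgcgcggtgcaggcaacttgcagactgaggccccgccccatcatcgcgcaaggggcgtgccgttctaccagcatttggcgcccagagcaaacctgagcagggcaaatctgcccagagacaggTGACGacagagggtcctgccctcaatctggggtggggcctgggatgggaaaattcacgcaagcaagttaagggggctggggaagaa

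Nlrc5, a regulator that raises transcription of class I genes, had the lowest level per kilobase of the 10. At 2 weeks it stood at 36.7, 46.7 and 47.5 CPM in the controls, 72.3, 67.1 and 67.1 CPM after 65 Gy and 44.3, 68.8 and 174 CPM after 75 Gy. The 65 Gy libraries were close together and above all controls, whereas the 75 Gy libraries ran from within the control range to the highest value of the series, in library 3134. Its log2 fold change was 0.66 ± 0.33 (SE, adjusted p = 0.234) after 65 Gy and 1.13 ± 0.33 (SE, adjusted p = 0.024) after 75 Gy. With library 3134 left out, the 65 Gy value passed the test at 0.66 (adjusted p = 0.0114) and the 75 Gy value did not at 0.37 (adjusted p = 0.181). The 75 Gy call was also lost without any 1 of the controls 3126, 3127 and 3128 (adjusted p = 0.0532 to 0.0619) and when only the groups compared were fitted (0.164). At 6 weeks Nlrc5 stood at 46.4, 57.1 and 53.3 CPM in the controls, 70.5 and 55.03 CPM after 65 Gy and 47.8, 60.5 and 47.6 CPM after 75 Gy, and the log2 fold changes of 0.26 ± 0.37 and -0.0076 ± 0.33 (SE) did not pass the test. The plot of fold changes sets all 10 genes side by side.

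**Figure D2:**
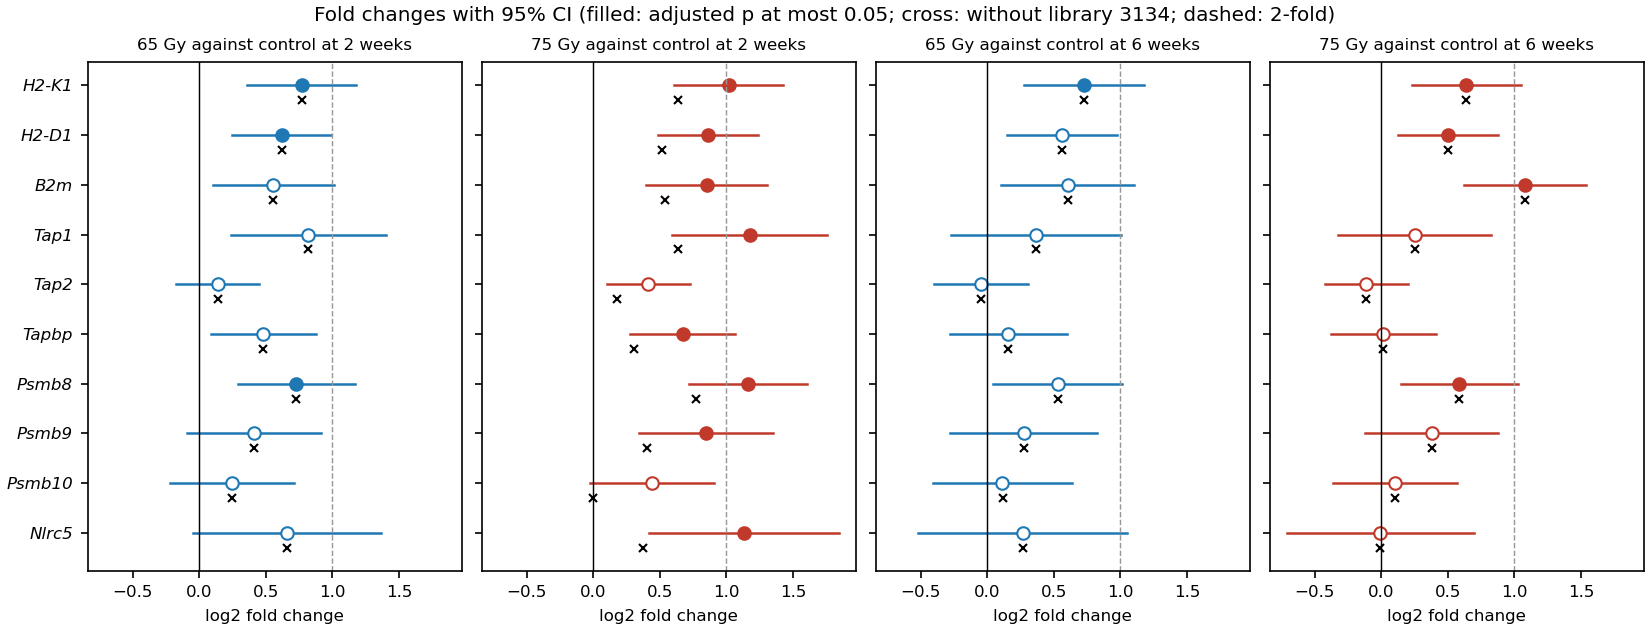
Log2 fold changes of the 10 genes against the controls of the same time in 4 panels (points, with 95% confidence intervals as bars), where filled points have an adjusted p of at most 0.05, crosses give the value without library 3134 and the dashed line marks a log2 fold change of 1. At 2 weeks after 75 Gy, 8 of 10 points are filled and every cross lies to the left of its point, while at 6 weeks after 75 Gy only H2-K1, H2-D1, B2m and Psmb8 are filled.

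Compared per length, the chains of the class I molecule were by far the most abundant of these transcripts. In the 2-week controls the mean level per kilobase of the longest coding transcript was 1449 CPM for B2m, 527 CPM for H2-K1 and 440.4 CPM for H2-D1. Tapbp followed with 81.0 CPM per kilobase, and Psmb8 (33.8), Psmb10 (31.7), Tap2 (24.3), Tap1 (19.98) and Psmb9 (19.01) were within a narrow range, above Nlrc5 (5.76). After 75 Gy at 2 weeks Psmb8 stood at 75.7 CPM per kilobase and Tap1 at 45.1, so that Tap1 was above Tap2 (32.4), the reverse of the controls.

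The exchange of catalytic subunits was followed as the ratio of each inducible subunit to its constitutive counterpart within a library, a quantity that does not depend on library scaling. The counterparts are Psmb5 for Psmb8, Psmb6 for Psmb9 and Psmb7 for Psmb10. At 2 weeks the mean log2 ratio of Psmb8 to Psmb5 was 0.79 ± 0.37 (SD, n = 6) in irradiated libraries of both doses and 0.33 ± 0.39 (SD, n = 3) in controls, a difference of 0.46 with p = 0.143 by an exact two-sided permutation test (adjusted p = 0.286 over 6 tests). Control library 3126, at -0.085, was far below the controls 3127 and 3128, at 0.42 and 0.67. The ratios of Psmb9 to Psmb6 and of Psmb10 to Psmb7 differed by 0.18 (exact permutation p = 0.714) and 0.031 (exact permutation p = 0.905). None of the 3 ratios was separated from its controls at 2 weeks.

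At 6 weeks 2 of the 3 ratios were lower in irradiated libraries. The log2 ratio of Psmb9 to Psmb6 was -1.58 ± 0.19 (SD, n = 5) against -1.12 ± 0.16 (SD, n = 3) in controls, and that of Psmb10 to Psmb7 was -0.81 ± 0.16 against -0.38 ± 0.060. In both cases all 5 irradiated libraries were below all 3 controls, although for Psmb9 to Psmb6 the nearest libraries were -1.336 and -1.295. The exact permutation p was 0.0357 for each, the smallest that 5 against 3 libraries allow, and 0.107 after adjustment over the 6 tests, which does not pass. The ratio of Psmb8 to Psmb5 differed by -0.052 (exact permutation p = 0.643). The plot of subunit ratios shows libraries 3126, 3132 and 3134 at the ends of the range at 2 weeks.

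**Figure D3:**
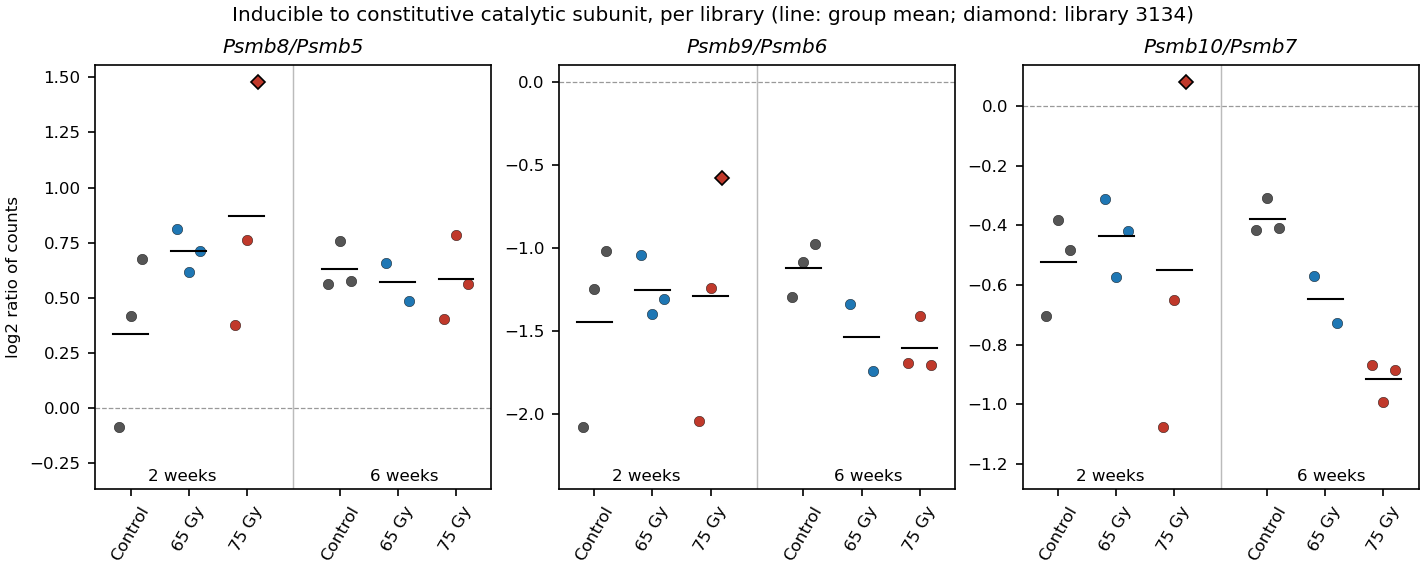
Log2 ratio of counts of each inducible subunit to its constitutive counterpart in the 17 libraries, by group, with a line at the group mean and a diamond for library 3134. At 6 weeks the irradiated libraries lie below the controls for Psmb9/Psmb6 and Psmb10/Psmb7 and overlap with them for Psmb8/Psmb5.

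The constitutive counterparts themselves rose at 6 weeks after 75 Gy, and Psmb5 also at 2 weeks after 75 Gy, by 0.54 ± 0.15 (SE, adjusted p = 0.0176). Psmb6 stood at 61.7, 67.9 and 57.7 CPM in the controls, 99.998 and 100.4 CPM after 65 Gy and 104, 112 and 126 CPM after 75 Gy, Psmb5 at 39.02, 37.5 and 37.01 CPM in the controls, 59.04 and 54.4 CPM after 65 Gy and 57.2, 57.1 and 60.9 CPM after 75 Gy, and Psmb7 at 52.9, 55.3 and 55.8 CPM in the controls, 69.6 and 73.2 CPM after 65 Gy and 78.7, 88.02 and 89.2 CPM after 75 Gy. For each of them all irradiated libraries were above all controls. The log2 fold changes after 75 Gy were 0.63 for Psmb5 (adjusted p = 0.0052), 0.86 for Psmb6 (adjusted p = 0.005) and 0.64 for Psmb7 (adjusted p = 0.00552). After 65 Gy Psmb5 rose (0.58, adjusted p = 0.0299), and Psmb6 and Psmb7 did not pass. Of the 14 constitutive 20S subunits listed, 13 rose after 75 Gy at 6 weeks (background 18.0%; median log2 fold change 0.63), none of them a DEG, among them Psmb1 (0.70) and Psmb2 (0.43). The count was 1 of 14 after 65 Gy at 6 weeks, near the background of 7.66%, and 3 of 14 after 75 Gy at 2 weeks (background 11.8%). It was 0 of 14 after 65 Gy at 2 weeks (background 6.70%), where 1 subunit was under an unadjusted p of 0.05. Without library 3134 these counts did not change. The background of that fit was 9.01% after 65 Gy and 8.20% after 75 Gy at 2 weeks, and 9.66% and 19.8% at 6 weeks.

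The dose comparison asked whether 75 Gy gave more of these transcripts than 65 Gy. By edgeR, 0 of the 10 genes passed between the doses at 2 weeks and 0 at 6 weeks, where 0 of 22052 genes (0%) passed at either time. Over all genes, 1570 and 1431 had an unadjusted p under 0.05, and 9 and 13 passed by the exact test and 15 and 17 by DESeq2. No member had an unadjusted p under 0.05 in either comparison, and DESeq2 and the exact test also gave 0 members. At 2 weeks all 10 fitted differences were above 0, with a median of 0.29, and the largest were 0.47 for Nlrc5 (95% interval -0.23 to 1.18), 0.43 for Psmb8 (-0.0053 to 0.87) and 0.43 for Psmb9 (-0.064 to 0.93). Without library 3134 the median was -0.12, so that the direction rested on that library. At 6 weeks the median was -0.063, and B2m had the largest difference, 0.48 (95% interval -0.036 to 0.99). A p that misses the threshold does not show that the doses act alike, and the interval of Nlrc5 reached beyond a log2 difference of 1 in at least 1 direction at both times.

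Time was compared in the controls and in the effect of each dose. In controls of 6 weeks against 2 weeks, 0 of 10 genes passed by edgeR, DESeq2 or the exact test (1.63% of all genes passed by edgeR), and the members' unadjusted p-values lay at or above 0.177. The change in the effect of 75 Gy from 2 to 6 weeks, an interaction term, also passed for 0 of 10 (0.299% of all genes), and DESeq2 gave 0. Here 4 members had an unadjusted p under 0.05, all with a smaller effect at 6 weeks, and these were the transporter and loading genes and Nlrc5. The differences were -0.93 for Tap1, -0.53 for Tap2, -0.65 for Tapbp and -1.14 for Nlrc5, with adjusted p-values of 0.24 to 0.26. The median over the 10 genes was -0.50 and moved to -0.10 without library 3134. The corresponding change for 65 Gy passed for 0 of 10 (0.0136% of all genes), with 0 by DESeq2, and 0 members had an unadjusted p under 0.05.

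The other genes of the pathway were taken from 7 lists. Of 17 other MHC class I-type chains, 16 were tested, and they moved in both directions. After 75 Gy at 2 weeks 5 of the 16 rose (background 11.8%) and 1 fell (background 10.5%). After 75 Gy at 6 weeks 3 rose and 2 fell, where 18.0% of all genes rose and 18.0% fell, so that the share that rose was near the background. With 65 Gy, 1 chain fell at 2 weeks (background 4.29%), and at 6 weeks 2 fell (background 7.01%) with 1 rising (background 7.66%). Leaving out library 3134 gave 3 risen and 2 fallen after 75 Gy at 2 weeks and after 65 Gy at either time, and 6 risen and 2 fallen after 75 Gy at 6 weeks (background 19.8% risen). The background of risen genes was 8.20% after 75 Gy at 2 weeks, and 9.01% and 9.66% after 65 Gy at 2 and 6 weeks. H2-T23, which encodes Qa-1, the ligand of the inhibitory receptor CD94/NKG2A on NK cells, stood at 113, 121 and 138 CPM in the controls, 175, 157 and 158 CPM after 65 Gy and 146, 157 and 300.3 CPM after 75 Gy at 2 weeks and rose after 75 Gy by 0.69 ± 0.20 (SE, adjusted p = 0.023), which without library 3134 became 0.28 (adjusted p = 0.102). H2-M2, a nonclassical chain, was the chain with the largest change, at 0.746, 1.21 and 0.908 CPM in the 6-week controls, 27.5 and 24.6 CPM after 65 Gy and 16.1, 28.1 and 28.2 CPM after 75 Gy. Its log2 fold changes at 6 weeks were 4.77 (adjusted p = 0.00258) and 4.66 (adjusted p = 0.000687). At 2 weeks H2-M2 was at 4.12, 1.65 and 1.30 CPM after 65 Gy and 2.03, 3.44 and 28.6 CPM after 75 Gy, so that library 3134 alone of the 2-week libraries was at the level of 6 weeks.

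Other chains fell. H2-Q10, a secreted class I molecule best known from the liver, stood at 8.85, 10.9 and 9.27 CPM in the controls, 3.97, 2.74 and 3.62 CPM after 65 Gy and 2.63, 2.85 and 2.44 CPM after 75 Gy at 2 weeks, without overlap, and fell in all 4 comparisons, by between 1.21 and 1.87 on the log2 scale. H2-T24 fell at 6 weeks, with log2 fold changes of -0.56 after 65 Gy (adjusted p = 0.036) and -0.78 after 75 Gy (adjusted p = 0.001).

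Of 8 genes of peptide trimming and loading in the endoplasmic reticulum, 0 passed by edgeR after 65 Gy at either time, with 0 and 5 under an unadjusted p of 0.05. The background of risen genes was 6.70% and 7.66%. After 75 Gy, 1 of the 8 rose at 2 weeks, near the background of 11.8%, and 3 rose and 1 fell at 6 weeks (background 18.0% for each direction). Leaving out library 3134 gave 0 risen after 75 Gy at 2 weeks (background 8.20%). At 6 weeks it gave 1 after 65 Gy, near the background of 9.66%, and 4 after 75 Gy (background 19.8%). Pdia3, the disulfide isomerase of the loading complex, rose by 0.33 at 2 weeks and 0.41 at 6 weeks on the log2 scale. Hspa5, the chaperone BiP, rose by 0.59 ± 0.13 (SE, adjusted p = 0.00244) and Lnpep, an aminopeptidase of cross-presentation, fell, with -1.61 ± 0.33 (SE, adjusted p = 0.00183), both after 75 Gy at 6 weeks. Erap1, the aminopeptidase that trims peptides for class I, had log2 fold changes from -0.087 to 0.20 over the 4 comparisons, none of which passed.

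Among 9 proteasome activators and assembly factors, 0 passed by edgeR after 65 Gy, with 3 under an unadjusted p of 0.05 at each time. The background of risen genes was 6.70% at 2 weeks and 7.66% at 6 weeks. After 75 Gy, 4 of the 9 rose at 2 weeks (background 11.8%) and 5 at 6 weeks (background 18.0%). Leaving out library 3134 gave 2 risen after 65 Gy (background 9.01%) and 1 after 75 Gy at 2 weeks, near the background of 8.20%. Psme1 and Psme2 encode PA28, the interferon-inducible cap of the proteasome. Psme2 stood at 77.6, 56.8 and 59.7 CPM in the controls, 100.1, 78.8 and 86.5 CPM after 65 Gy and 121, 81.5 and 153 CPM after 75 Gy at 2 weeks, all irradiated libraries being above all controls, and rose after 75 Gy by 0.87 ± 0.18 (SE, adjusted p = 0.00295) at 2 weeks and 0.61 ± 0.18 (SE, adjusted p = 0.0147) at 6 weeks. Psme1 rose after 75 Gy by 0.50 ± 0.14 (SE, adjusted p = 0.0211) at 2 weeks, and by 0.51 ± 0.14 (SE, adjusted p = 0.0126) at 6 weeks. Without library 3134 the 2-week values after 75 Gy were 0.64 (adjusted p = 0.0144) for Psme2 and 0.28 (adjusted p = 0.115) for Psme1. The assembly factors Pomp (0.68) and Psmg2 (0.48) rose after 75 Gy at 6 weeks. Of 17 genes of the 19S regulatory particle, 10 rose after 75 Gy at 6 weeks (background 18.0%) and 2 at 2 weeks (background 11.8%), with Psmd8 (0.71), Psmc2 (0.54) and Psmc4 (0.41) having the smallest p at 6 weeks. After 65 Gy 1 rose at 6 weeks (background 7.66%), and 3 did so without library 3134 (background 9.66%). At 2 weeks 0 rose by edgeR after 65 Gy (background 6.70%), with 2 under an unadjusted p of 0.05.

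**Figure D4:**
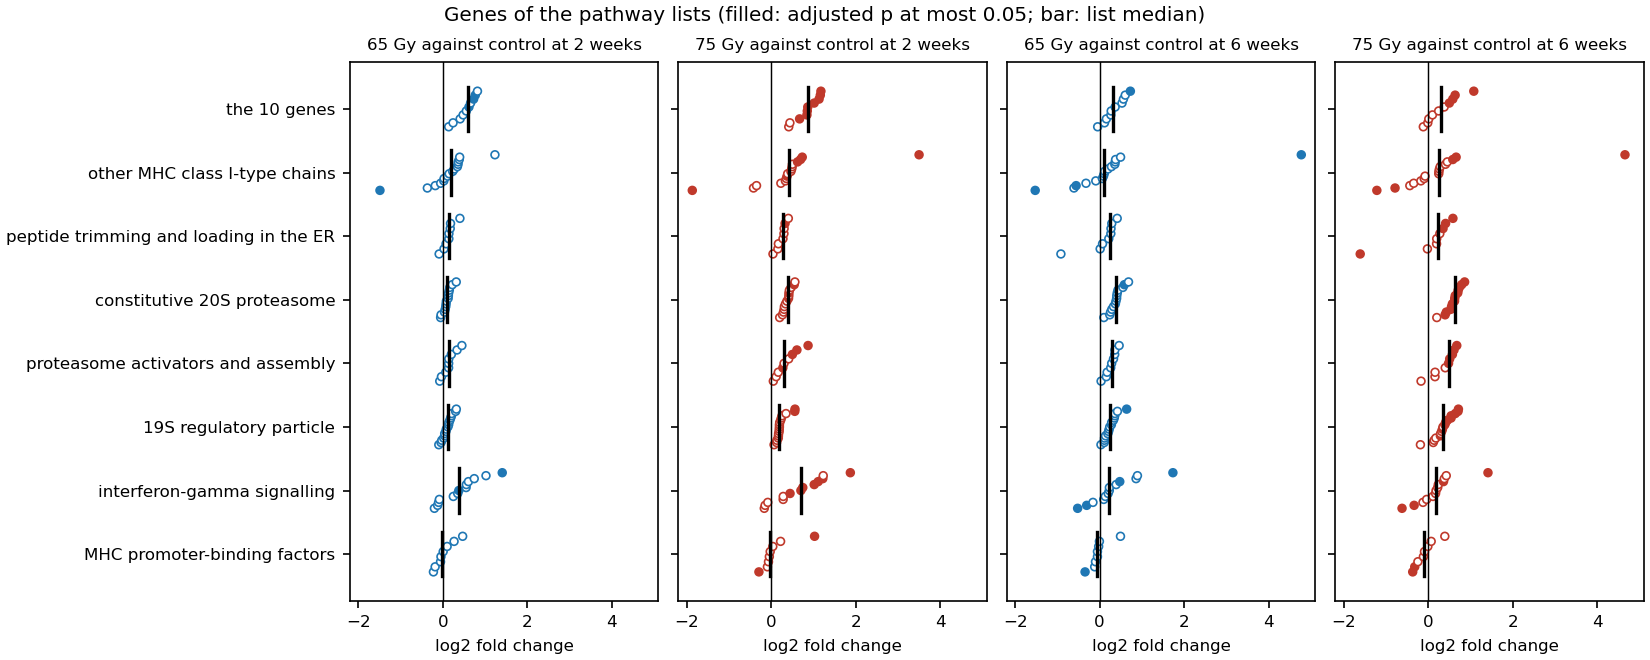
Log2 fold changes against the controls of the same time for the genes of 8 lists, the 10 genes described here in the top row, with filled points for an adjusted p of at most 0.05 and a bar at the median of each list. The constitutive 20S subunits are nearly all open at 2 weeks and filled, 13 of 14, after 75 Gy at 6 weeks, and the isolated points at the right of the chains are H2-M2.

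Of 13 genes of interferon-gamma signalling, 7 rose after 75 Gy at 2 weeks, 4 of them as DEGs, and 2 rose after 65 Gy. The background was 11.8% risen and 5.67% higher DEGs after 75 Gy, and 6.70% risen after 65 Gy. Leaving out library 3134 gave 5 risen, 2 as DEGs, and 1 fallen after 75 Gy, and 7 risen after 65 Gy. The background without that library was 8.20% risen and 3.85% higher DEGs after 75 Gy, where 1489 of 21953 genes fell. After 65 Gy it was 9.01% risen. At 6 weeks 2 rose and 2 fell at each dose (3 rose after 75 Gy without library 3134, where the background was 19.8%). The 6-week background was 7.66% risen and 7.01% fallen after 65 Gy, and 18.0% for each direction after 75 Gy, near the share of the list. Ifng itself was near the lower limit, at 0.467, 0.171 and 0.572 CPM in the controls, 0.678, 0.65 and 0.463 CPM after 65 Gy and 0.543, 0.709 and 1.62 CPM after 75 Gy at 2 weeks, and did not pass, with 1.23 ± 0.46 (SE, adjusted p = 0.0666) after 75 Gy. Irf1, an interferon-inducible transcription factor, did not pass in any of the 4 comparisons, with 0.28 after 75 Gy at 2 weeks.

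Socs3, a feedback inhibitor of cytokine signalling, rose in all 4 comparisons, with log2 fold changes of 1.41, 1.22, 1.73 and 1.42. Ifngr2, a chain of the interferon-gamma receptor, also rose in all 4, by 0.38, 0.70, 0.48 and 0.36. Irf2, which competes with IRF1 at its sites, fell at 6 weeks, with -0.52 and -0.62. Of 8 factors that act at MHC promoters, Ciita, the activator of MHC class II genes, rose after 75 Gy at 2 weeks by 1.02 ± 0.25 (SE, adjusted p = 0.00859), and without library 3134 by 0.57 (adjusted p = 0.042). Creb1 fell in 3 of the 4 comparisons, with -0.32 after 75 Gy at 6 weeks, where Nfya, a subunit of the factor that binds CCAAT, also fell (-0.36).

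The genes outside the 10 whose log2 CPM varied most like their mean z-score over the 17 libraries were H2-T23 (Pearson r = 0.975), H2-T22 (0.974), Gbp8 (0.962), H2-Q1 (0.958) and Mapkapk3 (0.958), out of 14473 genes compared. H2-T23, H2-T22 and H2-Q1 are class I-type chains, Gbp8 encodes an interferon-inducible GTPase and Mapkapk3 a protein kinase. Of the 93 windows of 100 bases in H2-D1 that occur in another gene, 85 occur in H2-Q1. Whether reads of H2-D1 were counted for H2-Q1 was not tested. The correlations are descriptions, since the libraries share groups and scaling and library 3134 lies at the end of the range. Among the 10 themselves, Tap1 varied most like the mean of the others (r = 0.971) and B2m least (0.736), Tap2 (0.789) and Psmb10 (0.828) being next.

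The cell types of the tissue moved in the same comparisons. Fewer or more cells of a type and less or more RNA per cell cannot be told apart in these bulk libraries. The 4 leukocyte markers summed to 521 to 626 CPM in 2-week controls, 815 to 879.7 CPM after 65 Gy and 771 to 1487 CPM after 75 Gy, and library 3134 held the highest value. At 6 weeks they summed to 571 to 793 CPM in controls, 880.4 to 902 CPM after 65 Gy and 891 to 955 CPM after 75 Gy. Of the 4 markers, 1 rose after 65 Gy (background 6.70%) and 2 after 75 Gy (background 11.8%) at 2 weeks. At 6 weeks 2 rose at each dose (background 7.66% after 65 Gy and 18.0% after 75 Gy). The markers that rose were Laptm5 in all 4 comparisons and Cd52 in 3, whereas Ptprc and Coro1a passed in none and overlapped with the controls at 6 weeks. Without library 3134 the counts of leukocyte markers did not change. The background of that fit was 9.01% after 65 Gy and 8.20% after 75 Gy at 2 weeks, and 9.66% and 19.8% at 6 weeks.

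Of 6 macrophage markers, 4 rose after 65 Gy (background 6.70%) and 6 after 75 Gy (background 11.8%) at 2 weeks. At 6 weeks 4 rose at each dose (background 7.66% after 65 Gy and 18.0% after 75 Gy). Without library 3134, 5 rose at each dose at 2 weeks (background 9.01% after 65 Gy and 8.20% after 75 Gy). At 6 weeks that fit gave 4 after 65 Gy (background 9.66%) and 5 after 75 Gy (background 19.8%). The sums at 6 weeks were 4339.6 to 4808 CPM in controls and 13181 to 14389.5 CPM after 75 Gy. The 6 CD8 T cell markers summed to 34.6 to 44.2 CPM in 2-week controls and 43.1 to 95.1 CPM after 75 Gy, the highest value again in library 3134, and to 34.8 to 54.2 CPM in 6-week controls and 53.5 to 62.3 CPM after 75 Gy. After 75 Gy the markers that rose were Cd3 genes, which all T cells share. They were Cd3e and Cd3g at 2 weeks (background 11.8%) and Cd3d and Cd3g at 6 weeks (background 18.0%). After 65 Gy, 0 of the 6 rose at 2 weeks (background 6.70%) and 1 at 6 weeks (background 7.66%). Without library 3134, 0 of the 6 rose after 75 Gy at 2 weeks (background 8.20%). At 6 weeks that fit gave 2 risen after 65 Gy (background 9.66%), and 3 risen and 1 fallen after 75 Gy (background 19.8% risen). With all libraries in the fit, the defining genes Cd8a and Cd8b1 passed in none of the 4 comparisons. Their log2 fold changes were 0.64 and 0.14 after 75 Gy at 2 weeks and -0.47 and -0.51 after 75 Gy at 6 weeks. At 6 weeks Cd8b1 was lower in every 75 Gy library than in every control, which did not hold for 65 Gy. Gzmk was at 0 in 1 control of 6 weeks. Neutrophil markers fell for 5 of 5 genes at both doses at 2 weeks (background 4.29% fallen after 65 Gy and 10.5% after 75 Gy). Their sums were 408 to 629 CPM in controls and 109 to 211 CPM after 75 Gy. Without library 3134, 5 of the 5 fell after 65 Gy and 4 after 75 Gy, where 1501 and 1489 of 21953 genes fell. B cell markers summed to 252 to 455 CPM in 6-week controls and 142 to 196 CPM after 75 Gy, NK cell markers to 29.9 to 39.04 and 19.7 to 27.2 CPM, and endothelial markers to 2902 to 2995 and 1287 to 1571 CPM. Alveolar type 1 markers summed to 4272 to 4775 and 2833 to 3168 CPM and fibroblast markers to 1064 to 1255 and 1139 to 1342 CPM in the same 2 groups. Alveolar type 2 markers summed to 20139 to 22320 and 23866 to 31844 CPM there, and 1 of 5 rose, near the background of 18.0%. The part of these cell types in the levels of the 10 genes was not tested.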

How the data were processed

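Stranded mRNA libraries from the lung of mice were sequenced by the authors, and 17 were analysed here. The study's methods name Trimmomatic for trimming, HISAT2 for alignment (build GRCm38.p6) and StringTie for assembly. The deposited values are raw counts, whole numbers of reads for each gene, and the step from StringTie to counts is not given in the sources used here. In R 4.3.3, edgeR 4.0.16 kept genes by filterByExpr (minimum count 10, total 15), scaled libraries by TMM and fitted 1 coefficient per group, with the quasi-likelihood test and Benjamini-Hochberg adjustment in 9 comparisons. CPM refers to the TMM-scaled library size, and standard errors and 95% intervals come from the fit. Subunit ratios were compared with exact two-sided permutation tests. Scripts were tested on simulated data. The 10 genes and all lists were chosen with earlier results of these data known. Named genes are the 10, others by role, the 3 of each pathway list with the smallest p, and the 5 most alike in pattern, 1 gene named by role not being reported here. Alternatives, DESeq2 1.42.0 among them, are given in the closing section, and the lists without library 3134 were added after the values were seen. Promoters are from RefSeq and cover 8 of the 10 genes, and transcript lengths and shared windows are from GENCODE.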

Additional observations from a re-analysis of the deposited data

How the results depend on the processing

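The call of a DEG was recomputed for the 10 genes with 2 other filters, 2 other scalings, edgeR's exact test, DESeq2 and only the groups compared, and without each library in turn. Without the fold-change limit the counts went from 0 to 3 after 65 Gy and from 4 to 8 after 75 Gy at 2 weeks, and from 0 to 1 and from 1 to 4 at 6 weeks. Also without that limit, fitting only the groups compared gave 7 risen after 65 Gy at 2 weeks, and 4 after 65 Gy and 5 after 75 Gy at 6 weeks. Over all genes, those fits passed 2123, 6411 and 9883 in either direction, against 2422, 3234 and 7935 with all libraries fitted. After 75 Gy at 2 weeks that kind of fit gave 1 risen, which was also the 1 DEG. Leaving out a library gave 0 to 7 DEGs there (2 without control 3126 or 3127, 7 without 3132 and 0 without 3134) and 0 to 1 after 75 Gy at 6 weeks (0 without 3142). The other counts of DEGs stayed at 0. Of 680 fold changes of single genes without a library, 618 kept direction and side of the threshold, and of 280 under the other alternatives, 253 did. The 680 include fits without a library of neither group compared, which could move a fold change little. The 618 therefore do not measure how calls hold without a library of the groups compared. Directions turned only for values that had not passed the test. Nlrc5 after 75 Gy at 6 weeks was 1.93e-05 with every gene of at least 1 count, 0.0061 with at least 10 counts in every library and 0.033 with upper-quartile factors, and -0.12 to 0.069 without single libraries. Such ranges were -0.0049 to 0.64 for Psmb10 after 75 Gy at 2 weeks, -0.16 to 0.077 for Tap2 after 65 Gy at 6 weeks and -0.042 to 0.065 for Tapbp after 75 Gy at 6 weeks. The other scalings moved the median of all genes by at most 0.040.

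Among the log2 ratios, Psmb10 to Psmb7 at 2 weeks turned to -0.026 with 75 Gy alone and -0.014 as a difference of medians, and ranged from -0.083 to 0.15 without single libraries. Psmb9 to Psmb6 at 2 weeks turned to -0.026 as a difference of medians and ranged from -0.14 to 0.39, and Psmb8 to Psmb5 at 6 weeks ranged from -0.10 to 0.010. The 2 ratios that were lower at 6 weeks kept their direction, from -0.61 to -0.39 for Psmb9 to Psmb6 and from -0.54 to -0.27 for Psmb10 to Psmb7, and no adjusted p passed. No paired analysis was possible because the labels number every library differently, so that none shares a replicate number with a library of another group. With 2 or 3 libraries per group and 1 of them apart, the intervals given between the doses are wide. The cause of the high levels in library 3134 was not tested.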

Other observations

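Library 3134 of 75 Gy at 2 weeks was also the highest of its group for Ifng (1.62 CPM against 0.543 and 0.709 CPM), Socs1 (20.05 against 5.66 and 6.78 CPM) and Cd8a (25.3 against 5.69 and 7.80 CPM). Of the macrophage markers it was also the highest of its group for Adgre1 (160.1 against 72.3 and 72.7 CPM), Cd68 (343 against 157 and 188 CPM), Itgam (248 against 72.4 and 85.9 CPM) and Csf1r (486 against 173 and 245 CPM), but not for Lyz2 (11879.5 against 12307 and 10656 CPM), which makes up most of their sum. Socs1, Cd8a and these macrophage markers were picked once their values had been seen. The constitutive 20S subunits summed to 1363 CPM in control library 3126 against 852 and 857 CPM in the other 2 controls of 2 weeks, and to 1531 CPM in library 3132 of 75 Gy against 1090 and 1331 CPM in the other 2 of its group, and these are the libraries with the lowest ratios of Psmb9 to Psmb6.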
